A study of Drosophila melanogaster with 36 samples.

Results

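The 8 genes Thor, chrb, scyl, REPTOR, foxo, InR, chico and S6k cover the insulin receptor branch and the TOR branch of nutrient signalling, with weight on the genes that hold TOR output down. They were chosen by name, as components of this pathway, with earlier results of these data known. No threshold on measured values was applied in the choice. All 8 were found among 13817 genes, through 27 transcripts whose TPM were taken singly and summed per gene. All 8 also passed the filter on low values (mean of at least 1 TPM), which left 8649 genes for testing. foxo passed only through 2 libraries in which it was high, and averaged 0.665 TPM over the other 34. TPM is transcript abundance per length, scaled to a fixed total per library.

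When food is plentiful, insulin-like peptides bind the insulin receptor InR, the adaptor chico passes the signal to PI3 kinase and Akt, and Akt keeps the transcription factor foxo out of the nucleus. Amino acids and Akt raise the activity of the kinase complex TORC1, which phosphorylates S6k and the translation repressor Thor and so promotes protein synthesis. When nutrients, oxygen or energy run short, foxo, REPTOR and stress factors act on transcription, and Thor, chrb and scyl restrain translation and TORC1. These roles come from work on whole flies, larvae and cultured fly cells.

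The measurements are RNA-seq of LNv neurons, the ventral lateral clock neurons of the adult brain, sorted by GFP from Pdf>mGFP females (membrane GFP under the promoter of the neuropeptide gene Pdf; strain w1118, genotype given as WT). The flies were raised on 1.5x sucrose-yeast food at 25 °C (HC25), on 0.5x sucrose-yeast food at 25 °C (LC25) or on 1.5x sucrose-yeast food at 18 °C (HC18), as the condition codes and the design text read together. Each condition has 12 libraries, 1 at every 2 h from ZT02 to ZT24, where ZT is the hour on the light schedule. The labels give neither the age of the flies nor whether libraries came from separate pools of flies. The p-values therefore describe how much the 36 libraries vary, and that variation may be technical.

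Pdf took 7.68% of all TPM in the HC25 library of ZT06 and 19.35 to 30.1% in the other libraries. The depth behind the values is unknown. The HC25 library of ZT06 was least like the others (median Spearman correlation across genes 0.837, against a median of 0.938 over all libraries). The summed level of 8 glial markers was 703 TPM in that library and 1306 TPM in the HC25 library of ZT08, and at most 110 TPM in the others. The markers were uneven, with Gs2 reaching 792.8 TPM, while wrapper and moody stayed at or below 3.103 and 3.195 TPM in every library. In the LC25 library of ZT18 the summed photoreceptor markers were 1004 TPM, against a median of 19.1 TPM over all libraries. The HC18 library of ZT16 held 1347 TPM of Ilp2, an insulin-like peptide gene of other brain neurons, against a median of 7.77 TPM. In 4 HC18 libraries (ZT06, ZT08, ZT10 and ZT22) the abundant transcript fmt was between 121 and 1603 TPM, against at least 6458 TPM in the other libraries. Calls that changed when these libraries were left out are given for the 8 genes, and for some of the other genes named.

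The 3 brakes on TOR output were the most abundant of the 8 genes, and the receptor, its adaptor and foxo were the least abundant. Levels averaged over 36 libraries were 1181 ± 449 TPM for chrb, 661.5 ± 188.9 for scyl, 410.1 ± 196.4 for Thor, 134.4 ± 30.9 for S6k, 88.9 ± 19.5 for REPTOR, 20.01 ± 5.14 for InR, 16.9 ± 4.02 for chico and 1.19 ± 2.40 for foxo (SD, n = 36). chrb ranked 109th, scyl 172nd and Thor 271st of 8649 genes by mean level, while foxo ranked 8417th. chrb exceeded scyl within all 36 libraries, scyl exceeded Thor in 30, Thor exceeded S6k in 35 and S6k exceeded REPTOR in 35. InR exceeded chico in 26 of 36 libraries, and their ranges of 12.9 to 36.2 TPM and 8.49 to 25.8 TPM overlapped. REPTOR and InR were the only neighbours in this order whose ranges did not overlap.

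**Figure D1:**
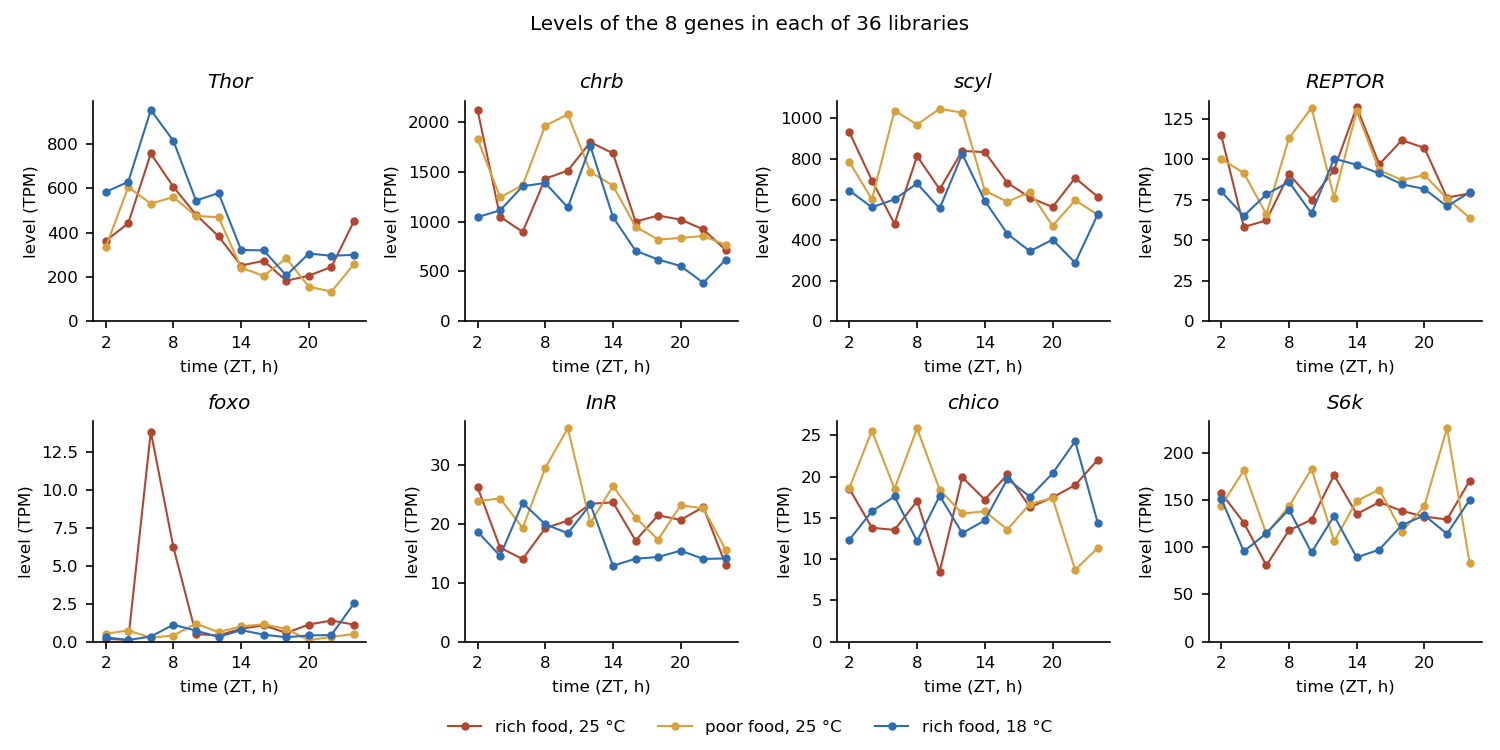
Level in TPM (vertical axes, from 0, a different scale in each panel) against ZT in hours for the 8 genes. Each point is 1 library, red for rich food at 25 °C, yellow for poor food at 25 °C and blue for rich food at 18 °C, and lines join libraries of a condition. Thor is high at ZT04 to ZT10 and low at ZT16 to ZT22 in every condition, chrb and scyl are lowest at 18 °C after ZT14, and foxo stands up only at ZT06 and ZT08 on rich food at 25 °C.

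A common 24 h rhythm over the 3 conditions was called for 3 of the 8 genes, Thor, chrb and scyl, against 23.9% of all genes tested (limma, adjusted p below 0.05 over 8649 genes). The 3 called genes restrain translation or TORC1, and none of the receptor, adaptor, kinase or transcription factor genes passed. The median amplitude of the 8 genes was 0.20 in log2 units, the same to 2 decimals as that of all genes tested (0.20). Amplitudes are from mean to peak of the fitted cosine on the log2(TPM + 1) scale, which understates changes of low genes, and folds of rhythms are fitted peak over trough.

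Thor encodes the fly 4E-BP, which binds the cap-binding protein eIF4E and blocks the start of cap-dependent translation. Its level ran from 183 to 758 TPM in HC25 (median 373), from 134 to 605 TPM in LC25 (median 309) and from 207 to 954 TPM in HC18 (median 434; 12 libraries each). The 12 libraries of ZT04 to ZT10 held 442 to 954 TPM and the 12 of ZT16 to ZT22 held 134 to 320 TPM, so these daytime and night groups did not overlap, within any condition or pooled. Such a gap, with all 12 daytime libraries above all 12 night libraries, was found in 0.613% of genes tested, and among the 8 genes in Thor alone. The fitted rhythm peaked at ZT6.99 with an amplitude of 0.85 ± 0.0667 log2 units (SE, n = 36; limma adjusted p = 2.19e-12). It remained called when any 1 of the 36 libraries was left out (largest adjusted p 1.4e-11).

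The rhythm of Thor was also called within each condition alone, where 8.45% of genes were called in HC25, 6.14% in LC25 and 5.52% in HC18. The fitted range was 3.01-fold with a peak at ZT6.46 in HC25, 3.51-fold with a peak at ZT7.58 in LC25 and 3.38-fold with a peak at ZT6.87 in HC18 (limma adjusted p = 4.53e-05, 5.07e-06 and 1.02e-05). As references for phase, the clock genes tim and Clk peaked at ZT16.0 and ZT2.80 in the common fit. eIF4E1, the main cap-binding protein that Thor represses, had a fitted range of 1.10-fold that did not pass (adjusted p = 0.683). Per library, the ratio of Thor to eIF4E1 in TPM had a median of 2.31 at ZT04 to ZT10 (1.46 to 5.70) and of 1.03 at ZT16 to ZT22 (0.700 to 1.44). The largest ratio came from the HC25 library of ZT06, the one least like the others. Thor exceeded eIF4E1 in all 12 daytime libraries and in 7 of 12 night libraries.

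chrb (charybde) and scyl (scylla) are the fly relatives of mammalian REDD1, and in flies they restrain TORC1 upstream, at the level of the TSC complex, for example in low oxygen. chrb ran from 714 to 2123 TPM in HC25 (median 1056), from 766 to 2075 TPM in LC25 (median 1302) and from 387 to 1757 TPM in HC18 (median 1046). At ZT04 to ZT10 it held 1244 to 2075 TPM in LC25 and 1113 to 1388 TPM in HC18. At ZT16 to ZT22 it held 820 to 948 TPM and 387 to 708 TPM. The windows were chosen with the values known. The share of all genes with such a gap within a single condition was not computed, so the ranges are a description. In HC25 these windows overlapped, at 897 to 1512 TPM and 922 to 1061 TPM, and the highest value of that condition, 2123 TPM, lay at ZT02. The common rhythm of chrb peaked at ZT8.95 with an amplitude of 0.57 ± 0.0843 log2 units (SE, n = 36; limma adjusted p = 6.44e-06). It was called with each of the 36 libraries left out in turn (largest adjusted p 2.29e-05).

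scyl ran from 481 to 932 TPM in HC25 (median 688), from 470 to 1048 TPM in LC25 (median 641) and from 289 to 825 TPM in HC18 (median 559). At ZT04 to ZT10 scyl held 480.5 to 814.7 TPM in HC25, 601.6 to 1048 TPM in LC25 and 556.3 to 679.7 TPM in HC18. At ZT16 to ZT22 it held 563.1 to 706.7 TPM, 470.4 to 638.1 TPM and 288.7 to 431 TPM. These ranges overlapped in HC25 and LC25 and not in HC18. The share of all genes with such a gap within a single condition was not computed. The common rhythm peaked at ZT8.68 with an amplitude of 0.34 ± 0.0696 log2 units (SE, n = 36; limma adjusted p = 0.0011). It was called without any 1 library (largest adjusted p 0.00318). chrb and scyl also had the most similar profiles of any pair among the 8 genes, with a Pearson correlation of 0.86 over 36 libraries of log2 levels centred by condition. These libraries share time of day and the scaling to a fixed total, so the correlation is a description of how the levels ran together. The correlation with Thor was 0.56 for chrb and 0.54 for scyl.

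Within single conditions, both chrb and scyl were called rhythmic in LC25 and HC18 and not in HC25. The fitted range of chrb was 1.59-fold in HC25 (limma adjusted p = 0.263), 2.33-fold in LC25 (adjusted p = 0.0131) and 3.05-fold in HC18 (adjusted p = 0.00053). That of scyl was 1.12-fold in HC25 (adjusted p = 0.89), 1.96-fold in LC25 (adjusted p = 0.0171) and 1.90-fold in HC18 (adjusted p = 0.0271). The difference between rhythms, tested directly, was called for none of the 8 genes and for 0% of all genes in either contrast (limma; 4.1% of genes had an unadjusted p below 0.05 for LC25 against HC25, and 3.65% for HC18 against HC25). Among the 8 genes the unadjusted p was below that level for scyl (0.0483) and chico (0.0095) in LC25 and for chrb (0.0407) in HC18. These calls also moved with single libraries. In HC25, chrb was called without the library of ZT02 (adjusted p = 0.0188). In LC25, chrb was not called without ZT10 (adjusted p = 0.0535), and scyl was not called without ZT10 or without ZT20 (largest adjusted p 0.0711). In HC18, scyl was not called without any 1 of ZT08, ZT12, ZT18, ZT20 or ZT22 (largest adjusted p 0.127).

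**Figure D2:**
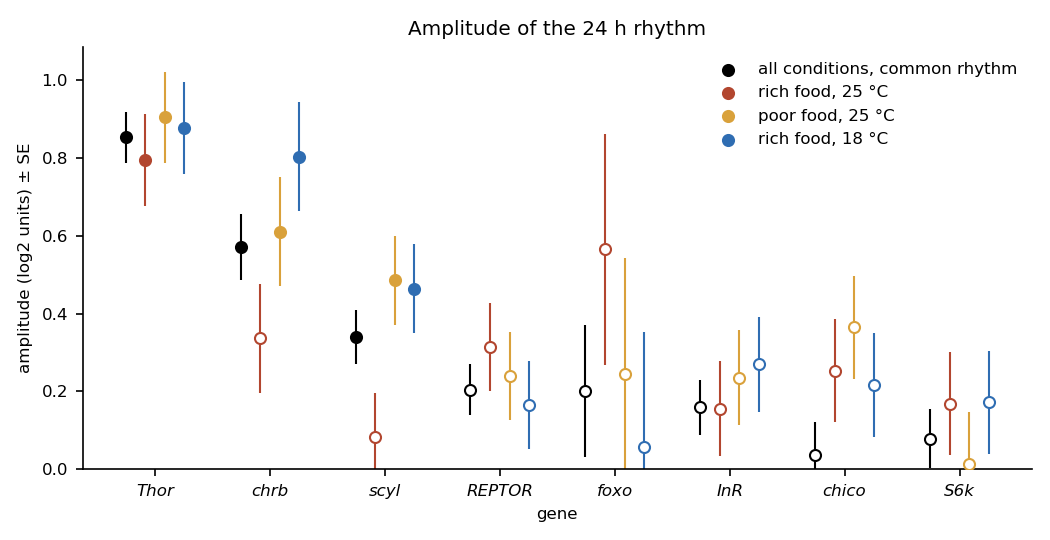
Amplitude of the 24 h rhythm in log2 units, from mean to peak, with its standard error, for the 8 genes. Black points are the common rhythm of 36 libraries and coloured points the 3 conditions with 12 libraries each, and filled points had an adjusted p below 0.05. Thor lies between 0.80 and 0.90 in all 3 conditions, while chrb runs from 0.34 to 0.80 and scyl from 0.08 to 0.49.

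REPTOR is a transcription factor that TORC1 holds in the cytoplasm and that turns on a large share of the genes induced when TORC1 is inhibited. It ran from 58.3 to 132.4 TPM in HC25, from 64.1 to 131.9 TPM in LC25 and from 65.2 to 100.5 TPM in HC18 (medians 92.3, 91.03 and 81.0). The common rhythm had a fitted peak at ZT14.6, a range of 1.33-fold and a limma adjusted p of 0.0542, just outside the threshold. It passed at 0.0489 with the filter at a mean of 5 TPM, and also without any 1 of 7 libraries (HC25 ZT02 and ZT10, LC25 ZT02, ZT04, ZT08 and ZT12, and HC18 ZT10; smallest adjusted p 0.0165). Its partner REPTOR-BP, needed for REPTOR to bind DNA, was more abundant in all 36 libraries, with a median ratio of 3.43 in TPM (2.01 to 6.23). REPTOR-BP was called rhythmic, with a peak at ZT17.6 and a 1.51-fold range (adjusted p = 0.00908).

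foxo, the transcription factor that insulin signalling holds out of the nucleus, was close to the lower limit of what was tested. Outside the HC25 libraries of ZT06 and ZT08 its level was 0.0918 to 2.52 TPM (median 0.509, 34 libraries), and below 1 TPM in 25 of them. In HC25 at ZT06 and ZT08 it was 13.8 and 6.22 TPM, the same libraries in which the summed glial markers were 703 and 1306 TPM. The part of these cells in the foxo values was not tested. foxo had no called rhythm (limma adjusted p = 0.63). Its fitted amplitude was 0.20 log2 units with a peak at ZT8.03 in all libraries, and 0.12 with a peak at ZT16.7 without those of HC25 ZT06 and ZT08 (adjusted p = 0.688). Since the same libraries carried foxo past the filter on low values, its tests are given as a description. In sorted pools, fewer cells of a type and less RNA per cell cannot be told apart.

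InR, the receptor, ran from 12.96 to 26.2 TPM in HC25, from 15.6 to 36.2 TPM in LC25 and from 12.9 to 23.5 TPM in HC18 (medians 20.6, 22.9 and 15.0). Its fitted peak at ZT9.78 lay close to those of chrb and scyl, but the common rhythm of 1.25-fold did not pass (limma adjusted p = 0.214). Its correlation with chrb over the 36 libraries was 0.73, and that with REPTOR 0.61.

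chico, the insulin receptor substrate, had no called rhythm in HC25 or LC25, and no called difference between these rhythms. In HC25 it held 8.49 to 17.03 TPM at ZT04 to ZT10 and 16.3 to 20.3 TPM at ZT16 to ZT22, ranges that overlapped. In LC25 it held 18.4 to 25.8 TPM in the daytime window and 8.69 to 17.4 TPM at night. The windows were chosen with the values known, and the share of all genes with such a gap in LC25 was not computed. The fitted peaks were ZT20.5 in HC25, ZT7.69 in LC25 and ZT19.5 in HC18, and the rhythm passed in none of them (limma adjusted p = 0.428, 0.226 and 0.727). The rhythm difference between LC25 and HC25 had the smallest unadjusted p of the 8 genes (0.0095, amplitude of the difference 0.61 ± 0.188 log2 units), and its adjusted p was 0.969. The common rhythm of chico was near 0 (0.04 ± 0.0856 log2 units, adjusted p = 0.941). Exons of chico overlap those of an antisense RNA gene, and no label says whether the quantification used strand.

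S6k, the kinase that TORC1 activates and that phosphorylates ribosomal protein S6, ran from 80.9 to 176.6 TPM in HC25, from 83.7 to 226.6 TPM in LC25 and from 89.4 to 151.7 TPM in HC18. The common rhythm of the gene sum was 1.11-fold (limma adjusted p = 0.698).

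Rearing temperature was compared on rich food as HC18 minus HC25 over 12 matched time points. chrb and scyl were called lower at 18 °C, 2 of the 8 genes, against 2.3% of genes called lower and 8.22% called in either direction (limma, condition and time point as factors). chrb was 0.744-fold (95% CI 0.627 to 0.883; log2 difference -0.43 ± 0.121 SE, adjusted p = 0.0259) and higher at 18 °C in 2 of 12 pairs. scyl was 0.750-fold (95% CI 0.635 to 0.885; log2 difference -0.42 ± 0.117 SE, adjusted p = 0.0246) and higher at 18 °C in 1 of 12 pairs. The median log2 difference of the 8 genes was -0.20, and that of all genes tested 0.04.

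Some markers of other cells also differed in the same contrast. Of 7 fat body markers 4 were tested, and the yolk protein genes Yp1 (0.256-fold, limma adjusted p = 0.0143) and Yp3 (0.346-fold, adjusted p = 0.0346) were called lower at 18 °C. Lsp2, Fbp1 and Fbp2 had means below 1 TPM. The summed level of the 7 markers was 7.33 to 257.5 TPM in HC25 and 8.40 to 37.8 TPM in HC18. Among 6 haemocyte markers Pxn, the 1 tested, was called higher. The other 5 averaged below 1 TPM. In mean level Hml, He, NimC1 and srp were lower at 18 °C and eater was higher. The part of such cells in the chrb and scyl differences was not tested. Of 4 LNv markers only Pdfr was called, higher at 18 °C. Pdf averaged 265100 ± 22310 TPM in HC18 and 213200 ± 52700 TPM in HC25 (SD, n = 12). The part of Pdf in the fixed total behind these differences was not tested either. Without the HC25 libraries of ZT06 and ZT08, the former with 108.5 TPM of fat body markers and the latter with 257.5 TPM, chrb was 0.684-fold (adjusted p = 0.00285) and scyl 0.696-fold (adjusted p = 0.00263). These libraries stood out by their glial markers. Other HC25 libraries with fat body sums near that of ZT06 stayed in the fit (ZT04 92.8, ZT10 104.7 and ZT16 108.7 TPM). The omission is therefore no test of a fat body part.

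In the night window the groups did not overlap. At ZT16 to ZT22 chrb held 387 to 708 TPM in HC18 and 922 to 1061 TPM in HC25, and scyl held 289 to 431 TPM and 563 to 707 TPM. InR and foxo were also lower in all 4 HC18 libraries of this window than in all 4 HC25 libraries, InR at 14.02 to 15.4 TPM against 17.1 to 22.8 TPM and foxo at 0.284 to 0.459 TPM against 0.568 to 1.39 TPM. Such a gap was found in 3.41% of genes tested, and the window was chosen with the values known. At ZT04 to ZT10 the ranges of chrb overlapped, at 1113 to 1388 TPM in HC18 and 897 to 1512 TPM in HC25.

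The calls for chrb and scyl at 18 °C were close to the threshold and ended under several settings. Without the 4 HC18 libraries with little fmt, chrb was at -0.42 log2 units (limma adjusted p = 0.0883) and scyl at -0.34 (adjusted p = 0.192), with 138 genes called in all against 711. Without time point in the fit, adjusted p was 0.258 for chrb and 0.102 for scyl. The call for chrb also ended without any 1 of 9 libraries (HC25 ZT02, ZT14, ZT18, ZT20 and ZT22, and HC18 ZT02, ZT10, ZT20 and ZT22; largest adjusted p 0.0627), and that for scyl without HC25 ZT22 or HC18 ZT22 (largest adjusted p 0.0597). The log2 difference stayed between -0.50 and -0.36 for chrb and between -0.50 and -0.35 for scyl over the 36 omissions.

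Thor went the other way, with a higher level at 18 °C in 11 of 12 pairs that did not pass (1.24-fold, 95% CI 1.05 to 1.47; limma adjusted p = 0.0996). It passed after quantile normalization (0.32 log2 units, adjusted p = 0.038) and without the ZT24 library of either condition (smallest adjusted p 0.0303). The other genes did not pass, with REPTOR at 0.912-fold (95% CI 0.786 to 1.06), InR at 0.861-fold (0.726 to 1.02), S6k at 0.878-fold (0.724 to 1.06), chico at 0.987-fold (0.783 to 1.24) and foxo at 0.687-fold (0.451 to 1.05). Their adjusted p lay between 0.261 and 0.961. Without the HC25 libraries of ZT06 and ZT08 foxo was 0.941-fold (0.705 to 1.26).

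Food was compared at 25 °C as LC25 minus HC25, a contrast that shares the HC25 libraries with the temperature contrast. None of the 8 genes was called, nor any other gene, 0% of those tested (limma; 5.24% of genes, and none of the 8, had an unadjusted p below 0.05). Thor was 0.895-fold on poor food (95% CI 0.757 to 1.06), chrb 1.01-fold (0.854 to 1.203), scyl 1.04-fold (0.879 to 1.22), REPTOR 1.02-fold (0.88 to 1.19) and S6k 1.05-fold (0.867 to 1.27). InR was 1.16-fold (95% CI 0.978 to 1.38), chico 0.998-fold (0.792 to 1.26) and foxo 0.703-fold (0.462 to 1.07). foxo was higher on poor food in 7 of 12 pairs, and without the HC25 libraries of ZT06 and ZT08 it was 0.963-fold (0.721 to 1.29). Thor transcription is known to rise on starvation in larvae. The poor food here was 0.5x food and not starvation, and the cells were sorted adult neurons. In this contrast the upper end of the 95% interval of Thor was 1.06-fold, and Thor was higher on the poorer food in 3 of 12 pairs.

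**Figure D3:**
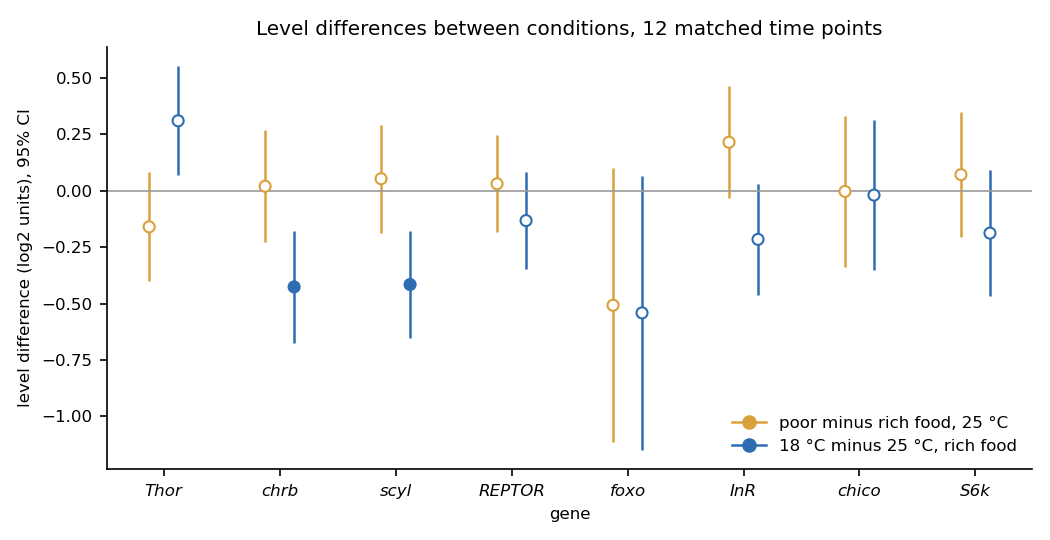
Level difference in log2 units with its 95% confidence interval for the 8 genes, from 12 time-matched pairs of libraries per contrast. Yellow is poor minus rich food at 25 °C and blue is 18 °C minus 25 °C on rich food, and filled points had an adjusted p below 0.05. Only chrb (-0.43) and scyl (-0.42) at 18 °C are filled, and Thor lies at 0.31 on the other side of 0.

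The 8 genes were also read transcript by transcript, for the 16 of 27 transcripts with a mean of at least 1 TPM. A common rhythm was called for 6 of the 16, against 13.4% of 14167 transcripts tested, and a level difference at 18 °C for 2 of the 16, against 4.76%. None was called between foods. Of the REPTOR transcripts, 3 were listed at 0 in all 36 libraries.

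Both Thor transcripts (chromosome arm 2L, forward strand) encode the same protein and start 88 nt apart. Thor-RB carried 75.3% of the Thor level and Thor-RA 24.7%. Thor-RB ran from 108.5 to 693.2 TPM and Thor-RA from 14.1 to 271.4 TPM. Both were rhythmic, Thor-RA 3.95-fold with a peak at ZT7.32 (limma adjusted p = 3.23e-07) and Thor-RB 3.10-fold with a peak at ZT6.87 (adjusted p = 8.8e-10). Thor-RA was 0.727-fold on poor food (95% CI 0.542 to 0.973) and 1.48-fold at 18 °C (1.10 to 1.98), neither past the threshold (adjusted p = 0.97 and 0.113).

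chrb (arm 3L, forward strand) was divided between chrb-RC, with 54.6% of its level and a coding length of 897 nt, and chrb-RE, with 45.4% and 699 nt, which start 6321 nt apart. chrb-RC was rhythmic, 2.40-fold with a peak at ZT8.75 (limma adjusted p = 4.67e-05). chrb-RE was fitted at 1.85-fold with a peak at ZT9.65 and did not pass (adjusted p = 0.104). In HC25 chrb-RE ran from 157 TPM at ZT08 to 1153 TPM at ZT12. The highest value of chrb-RC, 1274 TPM, was in that same HC25 library of ZT08, which also held 1306 TPM of glial markers. Whether the transcripts differ in rhythm was not tested, and the quantification divides reads among transcripts that share exons.

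scyl (arm 3L, forward strand) was almost wholly scyl-RC, with 99.4% of its level. scyl-RA, which has the same coding exons and ends 929 nt from it, was listed at 0 in 34 of 36 libraries and at 116.6 TPM in HC18 at ZT10. scyl-RC was rhythmic (1.56-fold, peak at ZT8.61, limma adjusted p = 0.00663) and lower at 18 °C (0.735-fold, adjusted p = 0.0359). That lower level was not called without the 4 HC18 libraries with little fmt (adjusted p = 0.282), nor without any 1 of 12 libraries (HC25 ZT02, ZT04, ZT14, ZT16, ZT18, ZT20 and ZT22, and HC18 ZT10, ZT16, ZT18, ZT20 and ZT22; largest adjusted p 0.0792).

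The transcripts of S6k (arm 3L, reverse strand) share their start and coding exons and differ by 1399 nt at the 3′ end. S6k-RA, the shorter, carried 68.1% of the level and S6k-RB 31.9%. S6k-RB ran from 20.8 to 76.1 TPM and was rhythmic, 1.46-fold with a peak at ZT10.1 (limma adjusted p = 0.0203). It was called with each of the 36 libraries left out (largest adjusted p 0.0474). S6k-RA was fitted with a peak at ZT21.8, nearly opposite in phase, and did not pass (1.39-fold, adjusted p = 0.213). The median share of S6k-RB was 34.7% at ZT04 to ZT10 and 27.5% at ZT16 to ZT22, with ranges of 26.2 to 45.4% and 15.5 to 41.7% that overlapped.

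S6k-RB was also lower at 18 °C, at 0.715-fold (95% CI 0.601 to 0.85; limma adjusted p = 0.0216) and higher there in 2 of 12 pairs, while S6k-RA was at 0.953-fold (0.74 to 1.23; adjusted p = 0.869). Without the 4 HC18 libraries with little fmt the difference of S6k-RB was 0.686-fold (adjusted p = 0.0624). The call also ended without HC25 ZT20, HC18 ZT10 or HC18 ZT20 (largest adjusted p 0.0509). The difference between the transcripts was not tested.

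REPTOR (arm 3R, reverse strand) was mostly REPTOR-RB (62.9%) and REPTOR-RC (31.3%), which share their coding exons. REPTOR-RF, with 5.83% of the level, has a longer coding length, 2442 against 2265 nt. REPTOR-RF ran from 1.83 to 8.80 TPM and was called rhythmic, 1.60-fold with a peak at ZT11.95 (limma adjusted p = 0.0455). This call ended after median-ratio rescaling (adjusted p = 0.0846) and without the 4 HC18 libraries with little fmt (adjusted p = 0.0898), and was made in 13 of 36 fits with 1 library left out (HC18 ZT24 the largest, adjusted p = 0.105). REPTOR-RB and REPTOR-RC had fitted peaks at ZT15.1 and did not pass.

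InR (arm 3R, reverse strand) was InR-RA (67.3%) and InR-RB (31.6%), with the same coding exons and starts 285 nt apart. At 18 °C InR-RA was 0.801-fold (95% CI 0.654 to 0.982, limma adjusted p = 0.195) and InR-RB 1.004-fold (0.811 to 1.24). chico (arm 2L, reverse strand) was mostly chico-RB (84.7%). None of the 5 foxo transcripts (arm 3R, forward strand) reached a mean of 1 TPM.

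**Figure D4:**
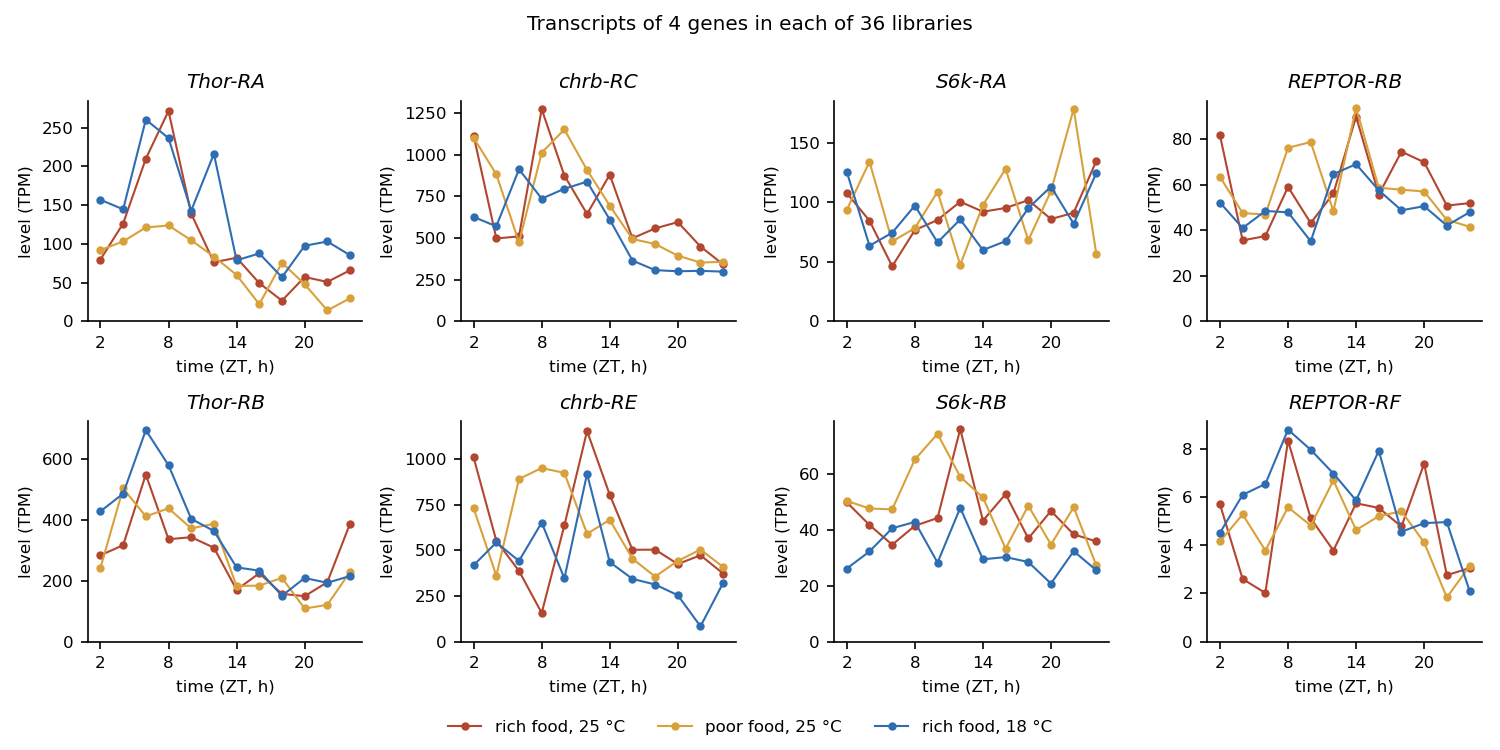
Level in TPM (vertical axes, from 0, a different scale in each panel) against ZT in hours for a pair of transcripts of each of Thor, chrb, S6k and REPTOR. Each point is 1 library, coloured by condition. Both Thor transcripts are high by day, chrb-RC and chrb-RE differ at ZT08 in HC25 (1274 and 157 TPM), and S6k-RB runs from 20.8 to 76.1 TPM. The HC25 library of ZT08 also held 1306 TPM of glial markers.

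The authors' deposited tables hold their own rank test for rhythms, BooteJTK, for 7 of the 8 genes. In the authors' deposited table of all conditions, 3 of these 7 had an adjusted p below 0.05, against 23.1% of 7864 genes listed. They were Thor (7.69e-07, phase 6.80 h), chrb (0.000606, phase 11.6 h) and scyl (0.00693, phase 11.6 h). REPTOR was at 0.0762 in that authors' deposited table, and S6k, InR and chico lay between 0.472 and 0.867. In the authors' deposited table of the 25 °C libraries, where 10.8% of 7991 genes listed were below 0.05, Thor (0.00193) and chrb (0.0463) were below it and scyl (0.0852) was not. At ZT12 the 3 libraries held 1498 to 1797 TPM of chrb and 824.5 to 1028 TPM of scyl.

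The wider pathway was read through 7 lists of 68 genes in all, of which 59 were tested. A common rhythm was called for 15 of the 59 (25.4%), close to the 23.9% of all genes. With time point as a factor in place of the cosine the count was 7 of 59 (11.9%), against 10.9% of all genes. At 18 °C 3 of the 59 were called (5.085%), against 8.22% of all genes. The median amplitude was 0.18, against 0.20 for all genes. These lists were drawn up with earlier results of these data known. The share of 23.9% over all genes stands beside each count of rhythmic genes given below for a list.

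Among the insulin and PI3 kinase genes 3 of 11 were rhythmic, against 23.9% of all genes. Without the HC18 library of ZT16 Ilp2 was called (limma adjusted p = 0.00124, against 0.625 with it), and the count was again 3. Without the HC25 libraries of ZT06 and ZT08 the count was 2. Ilp3, an insulin-like peptide gene best known from the insulin-producing cells of the brain, had the widest range of the 59 (19.5-fold, peak at ZT9.11, limma adjusted p = 2.54e-08). It held 62.2 to 310.6 TPM at ZT04 to ZT10 and 0 to 40.0 TPM at ZT16 to ZT22, apart from 456 TPM in the HC18 library of ZT16. Ilp2, made in the same insulin-producing cells, was 3.32 to 22.3 TPM by day and 2.46 to 1347 TPM at night, and below Ilp3 in all 12 daytime libraries. The rhythm of Ilp3 was called in all 36 fits with 1 library left out. Without the HC18 library of ZT16 the fitted peak was ZT8.75 for Ilp3 and ZT3.85 for Ilp2. The summed markers of insulin-producing cells held only Ilp2 and Ilp3. Since Ilp3 was the larger part by day, the sum largely restates Ilp3 and is no separate measure of these cells. Its medians by day and night were 145 and 19.8 TPM in HC25, 78.5 and 7.57 in LC25, and 139 and 39.9 in HC18. The part of such cells in the Ilp3 values was not tested.

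The adaptor dock (1.35-fold, peak at ZT16.0, adjusted p = 0.0289) and the PI3 kinase subunit gene Pi3K92E (1.32-fold, peak at ZT16.9, adjusted p = 0.0459) peaked in the night. Pi3K92E was called in 16 of 36 limma fits with 1 library left out and dock in 33. On poor food Ilp3 was 0.488-fold (95% CI 0.28 to 0.851, lower in all but 1 of 12 pairs), with an unadjusted p of 0.0132 and an adjusted p of 0.915. At 18 °C Pi3K21B was 0.798-fold (adjusted p = 0.0898) and Ilp2 2.05-fold (adjusted p = 0.225), or 1.29-fold without the HC18 library of ZT16 (95% CI 0.885 to 1.87, adjusted p = 0.435).

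Of the 9 genes of the TOR complexes, PRAS40 and Rheb were rhythmic. PRAS40 encodes an inhibitory subunit of TORC1 and peaked at ZT10.0, with a 2.09-fold range (limma adjusted p = 9.71e-06). It held 5.80 to 17.7 TPM by day and 4.80 to 12.4 TPM at night. Rheb, the GTPase that activates TORC1, peaked at ZT12.2 (1.38-fold, adjusted p = 0.0226), and was not called without HC18 ZT02 or HC18 ZT24 (largest adjusted p 0.0537). Lst8 did not pass (adjusted p = 0.0508). At 18 °C Sin1 was 1.40-fold (adjusted p = 0.08) and PRAS40 0.771-fold (adjusted p = 0.105), and on poor food mTor was 0.87-fold and PRAS40 0.906-fold (adjusted p = 0.973 each).

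None of 11 amino acid sensing genes was rhythmic, and 1 had an unadjusted p below 0.05, Wdr24 (1.70-fold, peak at ZT15.3, limma adjusted p = 0.0515). Next were Nprl3 (adjusted p = 0.184) and mio (adjusted p = 0.407). path, an amino acid transporter that acts upstream of TOR, was higher at 18 °C in 12 of 12 pairs (1.42-fold, 95% CI 1.19 to 1.71, adjusted p = 0.0129). Nprl3 was 1.24-fold there (adjusted p = 0.152), and on poor food Wdr24 was 0.711-fold (unadjusted p = 0.0308, adjusted p = 0.936) and path 1.15-fold (adjusted p = 0.973). Of 6 energy sensing kinase genes, alc, the beta subunit of AMPK, peaked at ZT7.15 (1.85-fold, adjusted p = 0.000718) and Sik2, a salt-inducible kinase, at ZT7.80 (1.62-fold, adjusted p = 0.0107). SNF4Agamma did not pass (adjusted p = 0.115). No level of this list was called, with AMPKalpha at 0.94-fold and Lkb1 at 1.13-fold at 18 °C, and SNF4Agamma at 0.828-fold and Sik2 at 1.13-fold on poor food.

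Of 9 genes of cap-dependent translation, eIF4H1, a helper of the eIF4A helicase, was rhythmic with a peak at ZT17.6 (1.42-fold, limma adjusted p = 0.00191), and Lk6 and eIF4G1 did not pass (adjusted p = 0.107 and 0.122). At 18 °C RpS6, the ribosomal protein that S6k phosphorylates, was 1.58-fold (95% CI 1.24 to 2.00, 10 of 12 pairs, adjusted p = 0.0133) and eIF4H1 0.774-fold (95% CI 0.675 to 0.888, higher in 2 of 12 pairs, adjusted p = 0.0157). Without the 4 HC18 libraries with little fmt, adjusted p was 0.277 for RpS6, 0.186 for eIF4H1 and 0.14 for path. On poor food eIF4G2 was 1.11-fold and eIF4H1 1.09-fold (adjusted p = 0.973 each).

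Among transcription factors of nutrient and stress signalling 6 of 11 were rhythmic, against 23.9% of all genes. This list too was drawn up with earlier results of these data known. Mondo, a sugar-responsive factor, peaked at ZT9.63 with a 2.91-fold range (limma adjusted p = 2.98e-07), and held 42.5 to 117.8 TPM by day and 15.9 to 71.0 TPM at night. crc, the fly ATF4 and a known activator of Thor, peaked at ZT7.70 (1.46-fold, adjusted p = 0.000108), within 1 h of Thor. Of all 2065 rhythmic genes, 14% peaked between ZT6 and ZT9. Mnt, an antagonist of Myc, peaked at ZT13.96 (1.65-fold, adjusted p = 3.4e-05), and Myc at ZT0.87 (1.49-fold, adjusted p = 0.0212; 0.0569 without HC18 ZT24). sima, the fly HIF alpha subunit and a known activator of scyl, peaked at ZT6.22 (1.39-fold, adjusted p = 0.0463) and was called in only 14 of 36 fits with 1 library left out. At 18 °C sima was 0.789-fold (adjusted p = 0.0898) and Mitf 0.764-fold and lower in all 12 pairs (adjusted p = 0.118), and on poor food they were 0.891-fold and 1.16-fold (adjusted p = 0.973 each).

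Among 5 tested genes of the fasting response only bmm, a triglyceride lipase that foxo activates, was rhythmic, with a peak at ZT2.05 (1.52-fold, limma adjusted p = 0.0312). It was not called without HC25 ZT02, HC25 ZT12, LC25 ZT14 or HC18 ZT14 (largest adjusted p 0.0674). tobi and Sesn did not pass (adjusted p = 0.237 and 0.541), nor did a level of Sesn (0.856-fold), ImpL2 (0.846-fold on poor food) or bmm (0.905-fold at 18 °C, 0.943-fold on poor food).

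**Figure D5:**
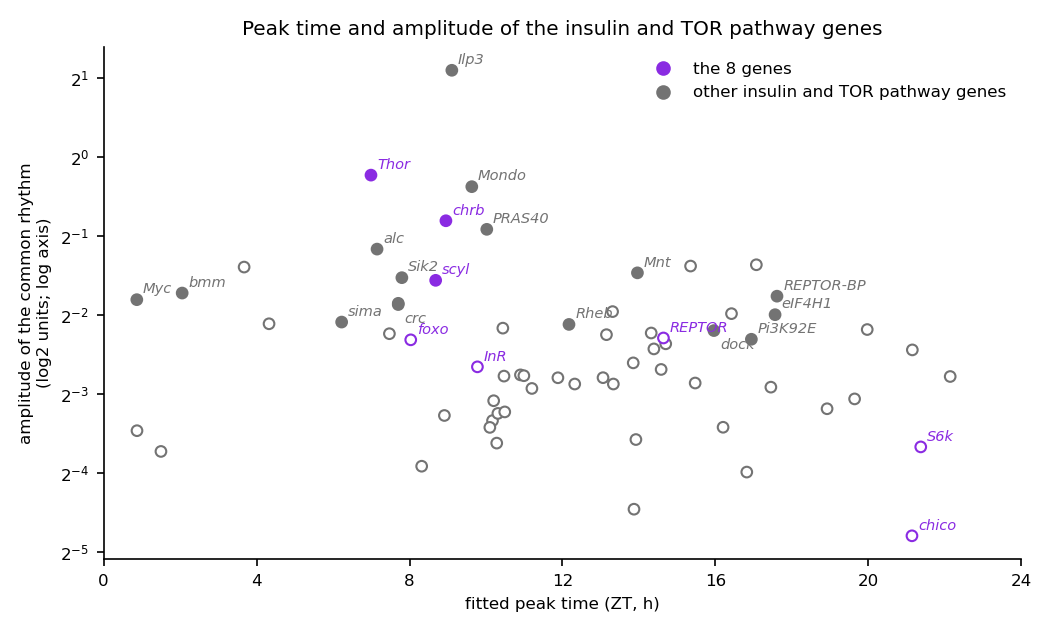
Amplitude of the common 24 h rhythm (log2 units, on a log axis) against fitted peak time (ZT in hours) for the 8 genes (purple) and 59 other insulin and TOR pathway genes (grey). Filled points had an adjusted p below 0.05 and are named. Thor, chrb, scyl, Ilp3, PRAS40, Mondo, crc, alc and Sik2 lie between ZT6.99 and ZT10.0, and REPTOR-BP, eIF4H1, Pi3K92E and dock between ZT16.0 and ZT17.6.

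The genes whose profiles were most like each of the 8 were sought among 5276 other genes with a mean of at least 10 TPM, by Pearson correlation of condition-centred log2 levels over 36 libraries. Nearest to Thor were Got1 (0.90), Tab2 (0.88) and NLaz (0.87), all rhythmic with peaks between ZT6.51 and ZT7.04. Nearest to chrb were tyf (0.87), Reck (0.85) and bves (0.85), with peaks between ZT7.81 and ZT9.08, and nearest to scyl were pico (0.78), Pka-C1 (0.77) and CG1504 (0.77), with peaks between ZT7.25 and ZT8.08.

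REPTOR ran most like hwt (0.85), Hrb27C (0.85) and Reph (0.84). InR ran most like Sema1a (0.82), Glut1 (0.81) and Syt1 (0.77), and S6k most like Adar (0.92), wech (0.83) and CG8209 (0.82). For foxo the nearest were Vha68-2 (0.82), GstE12 (0.80) and Vha100-2 (0.80), over libraries of which 2 carry the high foxo values. chico had no gene above 0.66, with p38b (0.66), rumi (0.65) and Fbl6 (0.65) nearest. The values compared share libraries, time of day and the scaling of TPM, so these are descriptions without a test.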

How the data were processed

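RNA of FACS-sorted LNv neurons was amplified with T7 RNA polymerase over rounds of cDNA synthesis before sequencing, per the labels' protocols, which can distort levels between transcripts. The authors deposited TPM per transcript, made with kallisto per the submitters' processing notes. No source used here gives its version, transcript set, genome build or strand setting. Because TPM are shares of a fixed total, read depth cannot be recovered from them and counting error is not shown. The authors also deposited BooteJTK tables with a rhythm score, a phase, p-values and adjusted p-values, per the file headers. A deposited table of gene sums, with 36 columns of per-sample values, was not used.

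Gene names came from Ensembl release 115 (30246 of 30485 transcripts matched), used for names and exon structure only, so no coordinates are given. TPM were summed per gene, and genes with a mean of at least 1 TPM were tested as log2(TPM + 1) with limma 3.58.1 in R 4.3.3 (lmFit, eBayes with a trend). Rhythms were 24 h cosine terms, common to all conditions or separate, and levels were compared with condition and time point as factors. P-values were adjusted by Benjamini-Hochberg over all genes or transcripts, with a threshold of 0.05. The procedure was tested on simulated data. Alternatives covered the pseudocount, the filter, rescaling, the model terms and left-out libraries. Leaving out each library in turn, the HC18 library of ZT16, the HC25 libraries of ZT06 and ZT08, and for transcripts the 4 HC18 libraries with little fmt, was chosen after seeing the data.

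The 8 genes, the pathway and marker lists and the day and night windows were chosen with earlier results of these data known. The text names all 8 genes, the 3 most similar genes to each, and from each pathway list the 3 genes of smallest p in the common rhythm and the 2 in each level difference. The genes tim and Clk serve as phase references, and the called genes REPTOR-BP, Myc and sima, and eIF4E1 as the partner of Thor, were added after their values were seen. Among marker lists, 3 of 8 glial, 3 of 7 fat body, 4 of 8 photoreceptor, 5 of 6 haemocyte and 4 of 6 muscle genes had a mean below 1 TPM. The summed level of fat body markers was at most 257.5 TPM, of photoreceptor markers at most 1004 (LC25, ZT18), of haemocyte markers at most 96.8, of muscle markers at most 17.9 and of Kenyon cell markers at most 189.6 TPM. Ilp5 was not analysed here. A gene that the naming rule selects is not reported here.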

Additional observations from a re-analysis of the deposited data

How the results depend on the processing

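Over the alternative settings other than those added after seeing the data, with transcripts under the higher filter, rescaling and the omission of HC25 ZT06, 759 values of the 8 genes and their transcripts were compared with those reported. Direction and side of the threshold were kept by 731, 17 changed sign with neither value called, 9 lost a call, 2 gained one and 0 reversed. Not in this tally, the transcript calls of scyl-RC and S6k-RB at 18 °C and of the REPTOR-RF rhythm ended without the 4 HC18 libraries with little fmt. The common rhythms of Thor, chrb and scyl were called under every alternative run (largest adjusted p 1.78e-07, 0.000188 and 0.0458, limma). The count of the 8 genes called lower or higher at 18 °C was 2, and fell to 0 without the 4 HC18 libraries with little fmt and to 0 without time point as a factor. It ranged from 0 to 3 when 1 library was left out. The count of rhythmic genes in HC25 ranged from 1 to 3 and in LC25 from 1 to 3 over the same omissions (reported 1 and 3). Pathway genes called at 18 °C numbered 3, against 7 after median-ratio rescaling, 6 after quantile normalization, 5 without HC25 ZT06, 6 without HC25 ZT06, HC25 ZT08 and HC18 ZT24, and 0 without the 4 HC18 libraries. Over all genes the share called moved alike, from 8.22% to 12.4, 12.1, 8.83, 11.3 and 1.6%. Pathway genes with a common rhythm numbered 15, and 7 with time point as a factor. Quantile normalization also ended the rhythm call of chrb in LC25 (adjusted p = 0.0612) and that of scyl in HC18, median-ratio rescaling that of scyl in LC25 (0.0863), and leaving out the 4 HC18 libraries that of scyl in HC18 (0.127). The cause was not tested. With 1 library per time point and condition, and unknown depth, small differences of low genes such as foxo could not be resolved. The level fits pair libraries across conditions by time point.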
